A study of Bos taurus with 6 samples.

Results

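Methylated CpG-dense windows are stretches of 1000 bp in which many CpG cytosines were read and most of the reads were methylated in every animal. They were found on the 29 autosomes on a fixed grid from base 1. A window was kept if 60 or more distinct cytosines were covered in it over all libraries, and if 2 or more libraries of each group measured it, with 3 or more cytosines and 10 or more read calls. Its methylation, the methylated calls as a percent of all calls in the window, had to exceed 70% in every library that measured it. Of 409025 autosomal windows with a covered cytosine, 8557 were dense and measured, and 1537 of these were over 70% throughout. Dropping 112 windows with 1000 or more calls in all 6 libraries left 1425. The same drop left 8256 dense windows in all, so 17.3% of them were methylated. The windows were thus chosen by their own measured levels, which are given below as a description. The test between groups further on used the same calls and is bounded by this choice.

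The libraries were made by reduced representation bisulfite sequencing from blood DNA of 6 adult male cattle, 1 library per animal. This assay cuts DNA at CCGG sites with MspI, converts unmethylated cytosines and sequences short fragments, and so samples CpG-rich DNA. Creole 1 was of the Sanmartinero breed, and Creole 2 and 3 were of the Costeno con Cuernos breed, Creole cattle being those of the American tropics. Spanish 1 was a Retinta, Spanish 2 an Asturiana de los Valles and Spanish 3 a Lidia. The UltraClean BloodSpin kit was used to extract Creole DNA and the QIAamp kit to extract Spanish DNA, and the names of the deposited files carry a lane mark that also differs between the groups. Kit, lane mark and group cannot be told apart, and with 1 or 2 animals per breed neither can breed and animal. Libraries held 40986296 to 84537374 read calls. Creole 1 covered 3491869 cytosines and the others 710684 to 1692031. All those of Creole 1 lay on the autosomes and the X chromosome, while each other library also covered cytosines elsewhere. Blood is a mixture of cells, and a level in whole blood cannot separate a share of cells from a level per cell. Expression was not measured, so the tissue label was not checked against marker genes.

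In mammals, methyl groups are added to cytosines of CpG pairs by the DNMT3 enzymes and copied at cell division by DNMT1. Most CpGs of the genome are methylated, while dense clusters of them, the CpG islands, mostly lie at gene starts and stay free of methylation. CpG-dense DNA that is methylated in somatic tissue is known from the bodies of genes, from promoters of germline genes, from imprinted genes and from repeats, where methylation accompanies silencing of transposable elements. A methylated CpG tends to mutate to TpG over evolutionary time, so DNA that stays both dense and methylated is uncommon.

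Dense windows were split between these states by their density. At 60 to 69 covered cytosines, 23.1% of 2926 windows were over 70% in every measured library, and at 120 or more 7.21% of 444 were. The share under 30% in every measured library ran the other way, from 36.3% to 70.9%. Below the density limit the methylated share was flatter, at 28.6% for 10 to 19 cytosines and 24.6% for 50 to 59. The median density was 70 cytosines in methylated dense windows, with a range of 60 to 157, against 80 in the 3948 windows under 30% throughout, called unmethylated dense windows here. The density counts cytosines that were covered, on both strands, and so depends on how many cytosines the libraries covered. Median reads per cytosine were lowest in Creole 1, at 8 against 10 to 19 in the others. Without Creole 1, which covered the most, 366 windows met the rule. Leaving it out also requires both other Creole libraries to measure a window. With the density still counted over all 6 libraries, 903 windows that Creole 1 measured met the rule in the other libraries.

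**Figure D1:**
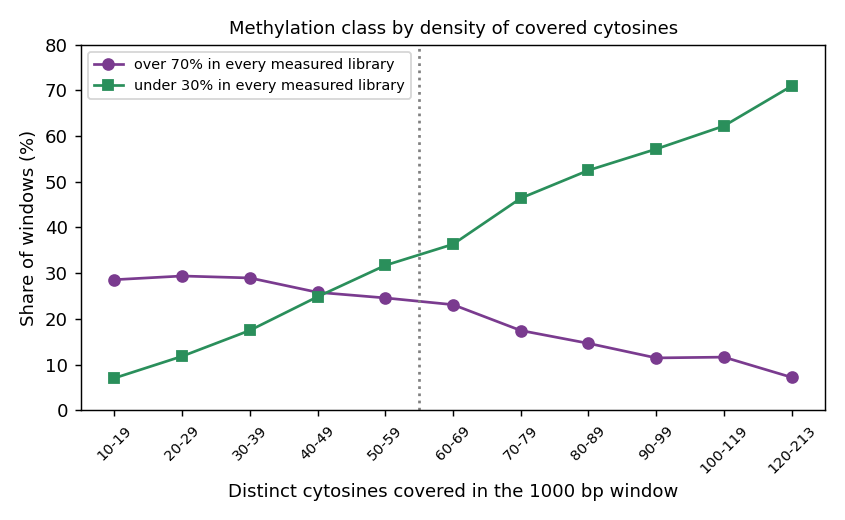
Share of 1000 bp windows (y axis, percent) that were over 70% or under 30% methylated in every measured library, by the number of distinct cytosines covered in the window (x axis). The dotted line marks the density limit of 60, above which the methylated share goes from 23.1% to 7.21% and the unmethylated share from 36.3% to 70.9%.

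The densest windows measured in all 6 libraries were read at high levels in every animal. On chromosome 18 (UMD3.1, 62379001 to 62380000), a window with 157 covered cytosines read 95.3%, 93.6% and 92.3% in Creole 1 to 3. It read 93.6%, 96.7% and 93.7% in Spanish 1 to 3. The groups overlapped, and the shallowest library, Creole 3 with 26 calls, had a 95% Wilson interval of 75.9 to 97.9%. On chromosome 22 (60040001 to 60041000), with 155 cytosines, Creole 1 to 3 read 90.8%, 94.96% and 94.4% and Spanish 1 to 3 read 91.6%, 97.7% and 94.1%. Here too the shallowest was Creole 3, with 18 calls and an interval of 74.2 to 99.0%. A window with 140 cytosines on chromosome 12 (88666001 to 88667000) was more variable: Creole 1 and 2 read 87.8% and 87.7% against 99.5% in Creole 3, and the Spanish libraries 94.3%, 100% and 94.2%. Among the 10 densest windows measured in all 6 libraries, the lowest value of any library was 79.4%, on chromosome 17 (35646001 to 35647000). Intervals cover counting error only, since reads copied by PCR are not independent molecules.

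Across all members, Creole 1 had the lowest median. The median level was 86.3% there, 88.9% in both other Creole libraries and in Spanish 1, 88.5% in Spanish 2 and 87.8% in Spanish 3. The upper end differed more, with no window at 100% in Creole 1 against 72 to 143 windows in each other library. Creole 1 read a median of 55 cytosines per window, the others 15 to 29. Creole 1 measured 1423 of the 1425 windows and Creole 3, the fewest, 1040. All 6 libraries measured 660 windows, 5 measured 595 and 4 measured 170. Depth was close to that of unmethylated dense windows: the median calls per covered cytosine in methylated and unmethylated dense windows were 15.5 and 15.1 in Creole 1 and 31.4 and 37.5 in Spanish 3.

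Within a window the animals were spread over a median of 15.6 percentage points from the lowest to the highest library, among the 660 windows that all 6 measured. The spread was under 10 points in 131 of these and over 20 points in 185. In 670 of the 1425 windows the lowest library was at 80% or more, and in 72 at 90% or more. Windows lay close to the threshold on both sides. The 5 windows just inside it had lowest libraries of 70.04% to 70.06%, the first of them on chromosome 9 (53558001 to 53559000). Outside it, 5 windows had a lowest library at exactly 70%, among them a window on chromosome 17 (74426001 to 74427000) where Creole 3 read 70% on 10 calls and Spanish 2 read 90.3%.

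Most windows were also over 70% in a library that took no part in their choice. The rule was applied to 5 libraries, with the density counted over those 5 alone, and the level was then read in the library left out. It measured 364 of the 366 windows so chosen when it was Creole 1, and 887 to 998 windows when it was any other. Of these windows 96.7%, 91.8% and 89.05% were over 70% in Creole 1, 2 and 3, and 92.3%, 93.9% and 91.6% in Spanish 1, 2 and 3. Among all dense windows of the same 5 libraries the share was 22.2% in Creole 1 and 27.2% to 30.1% in the others. Windows under 30% in the library left out numbered 0 for Creole 1, 10 for Creole 3 and 1 to 6 for the others. Members with fewer than 3 cytosines or fewer than 10 calls in a library were not measured there, and the rule did not use those calls. Such calls were 77.1% methylated in Creole 3 (2346 calls in 89 windows) and 88.2% in Spanish 1 (475 calls in 38 windows). They can rest on 1 or 2 cytosines per window. Such calls in all dense windows were 36.4% and 23.0% methylated in the same libraries.

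**Figure D2:**
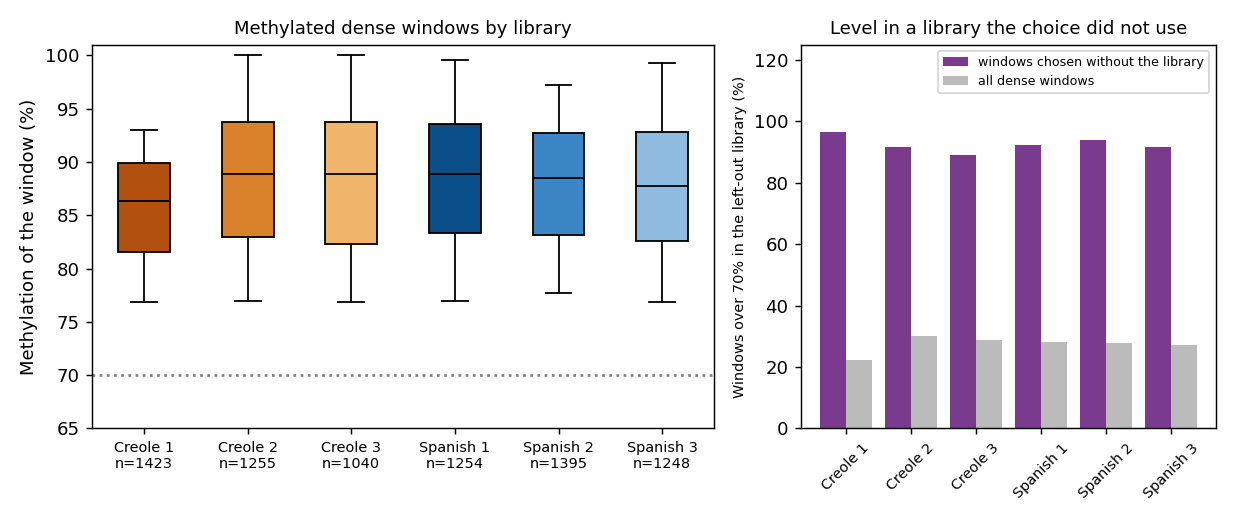
Left, methylation of methylated dense windows (y axis, percent) in each library, with boxes from the lower to the upper quartile, a line at the median, whiskers from the 10th to the 90th percentile, the number of windows measured under each name and a dotted line at 70%. Right, the share of windows over 70% in a library that took no part in choosing them (purple), from 89.05% in Creole 3 to 96.7% in Creole 1, beside the share among all dense windows of the other 5 libraries (grey), 22.2% to 30.1%.

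Methylated dense windows were concentrated at the distal ends of chromosomes. Cattle autosomes are acrocentric, with the centromere near base 1, and the distal end was taken as the last covered cytosine. Within 5 Mb of that end lay 763 of the 1425 windows (53.5%), against 439 of 3948 unmethylated dense windows (11.1%) and 24.9% of all dense windows. The 2883 other dense windows, of neither class, were between, with 857 there (29.7%). The last 1 Mb alone held 289 methylated dense windows (20.3%), 138 unmethylated ones (3.50%) and 313 of the others (10.9%). Seen the other way, methylated windows were 39.1% of the dense windows in the last 1 Mb, 41.7% from 1 to 2 Mb, 31.8% from 2 to 5 Mb, 15.5% from 5 to 10 Mb and 9.36% beyond 40 Mb. At the centromeric side the first 5 Mb held 8.14% of methylated and 6.13% of unmethylated dense windows.

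**Figure D3:**
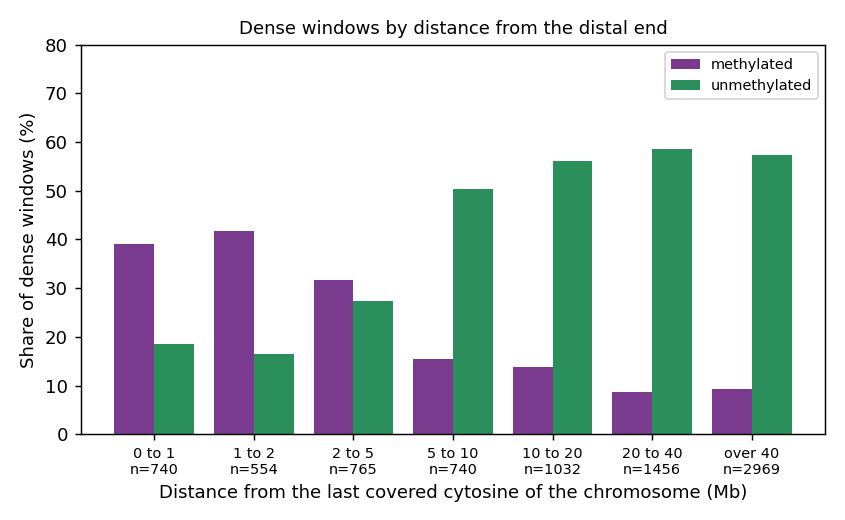
Share of dense windows (y axis, percent) that were methylated (purple) or unmethylated (green) by distance from the last covered cytosine of the chromosome (x axis, Mb, with the number of dense windows in each bin). The methylated share is 39.1% in the last 1 Mb and 9.36% beyond 40 Mb, and the unmethylated share 18.6% and 57.4%.

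The distal share was higher for methylated than for unmethylated dense windows on 28 of 29 autosomes. The exception was chromosome 28, where 8.33% of 12 methylated and 17.9% of 56 unmethylated dense windows lay in the last 5 Mb. On chromosome 12 the shares were 87.2% and 12.7%, and on chromosome 5 they were 76.5% and 9.89%. On chromosome 7 they barely differed, at 2.08% and 1.69%. Chromosome 25 held the most methylated dense windows, 136 of its 485 dense windows or 3.17 per Mb, and chromosome 17 the largest share, 106 of 337 (31.5%). Chromosome 10 had the smallest share, 16 of 257 (6.23%). These shares describe windows of 6 libraries and were not tested.

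The DNA beside methylated dense windows was methylated as well. These flanks, adjacent 1000 bp windows that belonged to neither class, did not enter the rule. Beside methylated dense windows they read 79.0%, 77.7% and 77.3% on average in Creole 1 to 3 and 80.3%, 80.4% and 79.4% in Spanish 1 to 3. Beside unmethylated dense windows they read 20.3%, 17.2% and 17.6% in the Creole and 15.4%, 14.6% and 13.7% in the Spanish libraries. The difference of 62.6 ± 3.28 points (SD, n = 6 libraries) had the same direction in 6 of 6 libraries (exact two-sided permutation test of signs, p = 0.03125, the smallest 6 libraries allow). Both classes were chosen by level in these libraries, and a grid line can cut through a CpG cluster. A common direction was therefore likely beforehand, and nothing further is read from the p-value. The sets held 2193 and 4916 flank windows, with median densities of 25 and 19 covered cytosines. From the second to the fifth window on each side the difference was 24.95 points.

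With distance, the 2 profiles approached each other from opposite sides. Around methylated dense windows the mean over libraries declined from 79.0% at 1 kb on the higher-coordinate side to 71.6% at 5 kb and 68.6% at 20 kb. Around unmethylated dense windows it climbed from 16.8% at 1 kb to 38.0% at 2 kb, 54.0% at 5 kb and 62.1% at 20 kb. The 2 classes seldom lay close together: 67 of 1425 methylated dense windows (4.70%) had an unmethylated dense window within 5000 bp, while 366 (25.7%) had another methylated dense window that near.

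**Figure D4:**
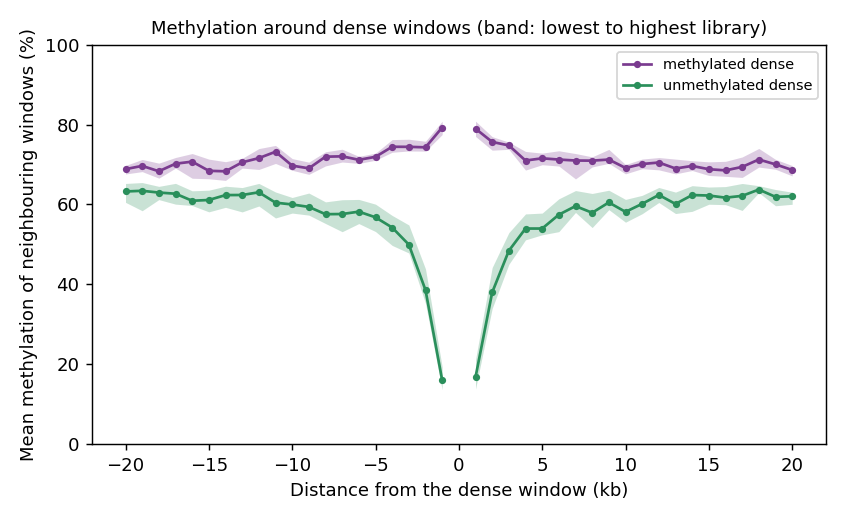
Mean methylation of neighbouring windows that belong to neither class (y axis, percent) by distance from a methylated (purple) or unmethylated (green) dense window (x axis, kb), with a band from the lowest to the highest library. At 1 kb on the higher-coordinate side the means are 79.0% and 16.8%, and at 20 kb 68.6% and 62.1%.

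Most methylated dense windows stood alone on the grid. Of 1329 runs of adjacent members, 1239 were single windows, 84 were pairs and 6 held 3 windows. The run nearest to a chromosome end was on chromosome 11, where 3 windows covered 107305001 to 107308000, at the last covered bases. In its middle window (107306001 to 107307000) Creole 1 to 3 read 86.5%, 95.1% and 90.9% and Spanish 1 to 3 read 88.2%, 88.0% and 90.5%, from 406 to 16363 calls. The window before it was less even, with Spanish 1 and 2 at 71.3% and 71.5% and Spanish 3 at 90.6%. Another run on the same chromosome covered 103465001 to 103468000. The remaining runs of 3 were on chromosome 6 (8900001 to 8903000), 23 (47901001 to 47904000), 25 (41646001 to 41649000) and 26 (25965001 to 25968000).

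Some methylated dense windows shared an arrangement of CpGs. A string of 8 successive distances between covered cytosines, at least 60 bp long and read in either orientation, was called recurring when 5 or more dense windows on 3 or more chromosomes held it. Windows with such a string numbered 110 of 1425 methylated (7.72%), 4 of 3948 unmethylated (0.101%) and 399 of 2883 other dense windows (13.8%). They made up 79 of the 112 windows over 70% that had been dropped for depth (70.5%). Of all 301 dense windows dropped for depth, at any level, 208 held such a string (69.1%). Over all 8557 dense windows, with the deep ones, 721 did (8.43%), a share near that of the methylated ones. The commonest string over all 8557 dense windows, held by 102 of them and by 22 of the 1425, had distances of 1, 28, 1, 11, 1, 6, 1 and 21 bp, where each distance of 1 joins the 2 strands of a CpG. Equal spacing on many chromosomes is how copies of a repeat would appear, but the sequences themselves were not used here.

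The windows with recurring spacing differed from the other members in place and level. They lay on 25 autosomes, a median of 40.7 Mb from the distal end, and 8 of 110 (7.27%) were in the last 5 Mb. Of the other 1315 members 57.4% were, at a median of 3.20 Mb. The 399 other dense windows with recurring spacing, not members, lay alike, with 5.51% in the last 5 Mb and a median of 44.8 Mb. Over the 93 members with recurring spacing measured in all 6 libraries, mean levels were 78.9%, 81.3% and 81.4% in Creole 1 to 3. They were 82.0%, 82.0% and 82.8% in Spanish 1 to 3. The 567 members without it that all 6 libraries measured read 85.8%, 88.8% and 88.9% in the Creole and 88.7%, 88.0% and 87.6% in the Spanish libraries. Depth differed by library: median calls per window with and without recurring spacing were 2262 and 796 in Creole 1, but 498 and 649 in Spanish 3. Median calls per covered cytosine were 38.5 and 15.1 in Creole 1, 18.45 and 38.8 in Creole 3, and 18.9 and 32.0 in Spanish 3. Whether depth or reads from several copies had a part in the lower level was not tested.

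Inside the windows, single cytosines were mostly either fully methylated or unmethylated. Among cytosines with 10 or more reads, 80.8% in Creole 1 and 85.8% to 86.8% in the other libraries were at 80% or more. Cytosines under 20% made up 8.59% in Creole 1 and 9.68% to 10.7% in the others, a mean of 10.02% ± 0.775 (SD, n = 6). The values between were 10.6% in Creole 1 and 2.84% to 4.28% elsewhere. Creole 1 thus had more cytosines of intermediate level than any other library, on 43561 cytosines against 9944 to 30435. Median calls per covered cytosine in these windows were 15.5 in Creole 1, and from 13.2 (Spanish 1) to 42.1 (Creole 2) in the others. These medians count cytosines of any depth, and whether depth had a part in the intermediate share was not tested. In members without recurring spacing the share between 20% and 80% was 9.31% in Creole 1 and 2.21% to 3.56% in the others, and in those with it 26.2% and 10.3% to 15.6%.

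**Figure D5:**
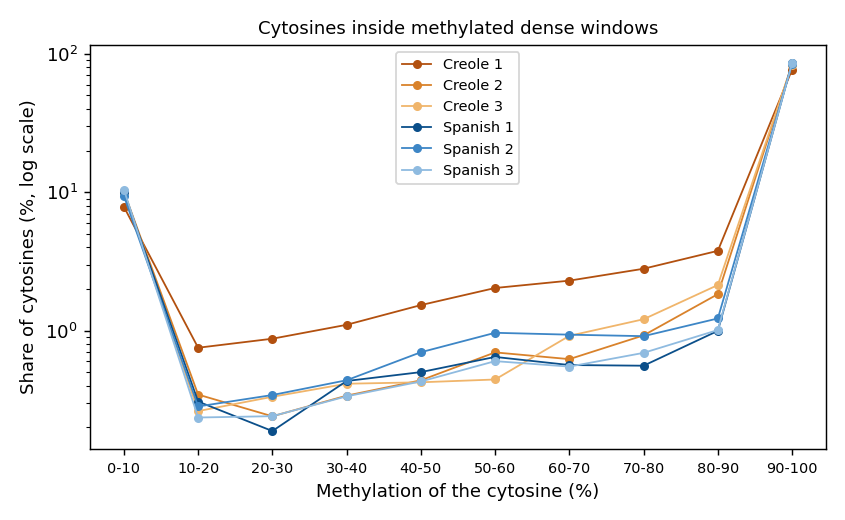
Share of cytosines with 10 or more reads inside methylated dense windows (y axis, percent, log scale) by their methylation in steps of 10 points (x axis), 1 line per library. Both end classes hold most cytosines in all 6 libraries, and Creole 1 lies above the others between 20% and 80%, where it has 10.6% of its cytosines against 2.84% to 4.28%.

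Part of the low cytosines lay at ends of covered stretches, where library preparation could have added bases. MspI leaves overhangs that were filled in, so the filled strand of a CpG at a fragment end can carry an unmethylated base that was not in the animal. Cytosines at ends of covered stretches, on the strand that would be filled, were 2.08% to 5.76% of those read and averaged 17.8% to 35.5% methylation. Their partner strands averaged 90.7% to 96.4%. Between 19.2% (Creole 1) and 36.6% (Spanish 1) of the low cytosines were at such places. Elsewhere in the windows 6.92% to 7.33% of cytosines were under 20%, a narrow range over the 6 libraries. The end places were inferred from gaps in coverage, without the sequence, and what made their cytosines low was not tested.

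Cytosines read 10 or more times in all 6 libraries numbered 659 of the 107801 covered in these windows, and lay in 78 windows. Of these, 282 (42.8%) were at 80% or more in every library, and 88 were under 20% in at least 1. In 27 cases the cytosine was under 20% in all 6. A cytosine under 20% in all 3 libraries of 1 group and at 80% or more in all 3 of the other was not among the 659. The rule had already required a high level of these windows in every measured library, which made such a cytosine less likely beforehand. Such cytosines were not counted in other windows, and nothing is read from their absence here. Recurring spacing marked 378 of the 659, so the set is weighted to such windows.

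Creole and Spanish animals were compared at these windows to ask whether their methylation differs between the groups. The mean over the 660 windows measured in all 6 libraries was 86.8% ± 1.68 for the Creole group and 87.3% ± 0.430 for the Spanish group (SD over 3 libraries each), a difference of -0.49 points. Creole 1 had the lowest mean, 84.9%, and Creole 2 and 3, with 87.7% and 87.8%, overlapped the Spanish libraries at 87.8%, 87.2% and 86.9%. Without Creole 1 the difference was 0.28 points. Over the 13987 windows measured in all 6 libraries, dense or not, and left after the same drop for depth, the group means were 53.1% and 53.0%. On cytosines covered in all 6 libraries, 160 members read 82.5% in Creole 1 and 84.2% to 85.0% in the others.

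Among the 660 windows the 3 Creole libraries were all above the 3 Spanish ones in 22 windows (3.33%), against 5.6% of all windows measured in all 6 libraries. They were all below them in 60 windows (9.09%), against 5.92%. Among all 3923 dense windows measured in all 6 libraries the order was the other way, with 337 (8.59%) higher in Creole and 142 (3.62%) higher in Spanish libraries. The rule holds every library between 70% and 100%, which bounds a difference at 30 points and shapes both counts. Creole 1, the library of lowest level, enters each of them, and its part in the counts was not tested.

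Single windows were tested over the whole table. The choice of members had already kept every measured library above 70%, so large differences were removed beforehand and the counts of members are given without reading anything from them. Windows were tested on cytosines covered in all 6 libraries with edgeR's quasi-likelihood test, with Benjamini-Hochberg adjustment over 4702 windows of all chromosomes. It called 0 windows (0.0%) at an adjusted p of 0.05, and so 0 of the 160 methylated dense windows that could be tested. At an unadjusted p under 0.05 it had 7 of the 160 (4.38%), against 5.36% of all windows. edgeR's likelihood ratio test called 1 of the 160, against 1.23% of all windows, and limma 0 of 160 and 1 of all windows (0.0213%). The smallest adjusted p among the 160 was 0.504.

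The window of that p-value lay on chromosome 15 (29807001 to 29808000) and had 5 shared cytosines. Creole 1 to 3 read 92.0%, 80% and 80% there and all 3 Spanish libraries 100%, a difference of -16.0 points (SE 3.99). Calls were 15 in Creole 3 and 10 in Spanish 1, and the likelihood ratio test of edgeR called this window (adjusted p = 9.09e-06) while limma did not (adjusted p = 0.860). With all covered cytosines of windows measured in 2 or more libraries per group, its log2 ratio went from -8.75 to -0.17. On chromosome 1 (144117001 to 144118000), the 15 shared cytosines had levels of 80.3%, 78.4% and 80.3% in Creole and 89.4%, 90.2% and 85.6% in Spanish libraries. The groups did not overlap, and the difference was -8.74 points (SE 1.56, adjusted p = 0.738 with edgeR's quasi-likelihood test). Creole libraries at 12128001 to 12129000 of chromosome 7 read 81.1%, 73.3% and 76.9% and Spanish libraries 87.7%, 87.7% and 93.5% over 23 cytosines, again without overlap (adjusted p = 0.857, edgeR). A window on chromosome 21 (1309001 to 1310000) averaged 82.4% ± 6.75 for the Creole group and 96.8% ± 2.74 for the Spanish group (SD over 3 libraries each), on 5 cytosines and as few as 12 calls. Its log2 ratio of -2.26 turned to 0.12 without Spanish 1, and to 0.34 with all covered cytosines of windows measured in 2 or more libraries per group.

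In the other direction, a window on chromosome 18 (12321001 to 12322000) had 5 shared cytosines that read 94.1%, 100% and 100% in Creole libraries. The Spanish libraries read 80%, 76.9% and 80% there, and the difference was 19.1 points (SE 2.23, edgeR's quasi-likelihood test, adjusted p = 0.857). A window of chromosome 3 (82857001 to 82858000) was similar: the 29 shared cytosines had levels of 83.8%, 86.6% and 87.7% in Creole and 72.3%, 80.03% and 81.7% in Spanish libraries. The window on chromosome 5 (118267001 to 118268000) overlapped between groups: Creole libraries read 99.4%, 100% and 100%, and Spanish libraries 100%, 93.2% and 87.5%. Its log2 ratio of 5.75 turned to -0.28 when windows measured in 2 or more libraries per group were fitted with all covered cytosines. These 7 windows are the ones with an unadjusted p under 0.05. Those on chromosomes 1, 3 and 7 were in a group of 106 methylated dense windows on 24 chromosomes linked by shared strings of distances between cytosines. That on chromosome 15 was in such a group of 2. Whether reads from several copies had a part in their levels was not tested.

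Gene names were at hand for part of the genome only. They came from the gene ranges in the authors' deposited table of regions listed as different between the groups. That table gives ranges for 247 autosomal genes, and 30 of them held 60 methylated dense windows. The gene with the most members, by that count, was A7MB59_BOVIN, a UniProt entry name, on chromosome 25 (41535263 to 41778055 in the authors' deposited table). It was also the longest of the 30, at 242.8 kb. It lay 1 to 2 Mb from the last covered base (42903747), a distance at which 41.7% of dense windows on all autosomes were methylated. A7MB59_BOVIN held 12 methylated and 1 unmethylated among 17 dense windows, and no library was under 72.7% in the 12. In 1 of them (41648001 to 41649000) Creole 1 to 3 read 80.6%, 78.3% and 82.6% and Spanish 1 to 3 read 93.8%, 76.3% and 87.8%. F19A5_BOVIN on chromosome 5 (119408851 to 119590555 in the authors' deposited table) held 6 methylated and 0 unmethylated among 11 dense windows. Its window at 119556001 to 119557000 read 93.7%, 94.7% and 99.8% in the Creole libraries, 94.9% in Spanish 2 and 100% in Spanish 3.

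Other genes of that table had fewer such windows. TNRC18, a gene with a trinucleotide repeat on chromosome 25, held 3 methylated and 2 unmethylated among 6 dense windows, so both states stood in 1 gene. PRKAR1B, a regulatory subunit of protein kinase A, held 2 among 5 dense windows. MTA1, a subunit of the NuRD chromatin remodelling complex, held 2 among 3, and 1 of these (chromosome 21, 71363001 to 71364000) read 70.05% in Creole 1 and 90.3% and 91.7% in Creole 2 and 3. SCUBE1, a secreted and cell surface protein of the EGF-like family, held 1 with 101 covered cytosines (chromosome 5, 114690001 to 114691000). It read 92.5%, 89.5% and 89.5% in Creole and 84.3%, 88.8% and 90.7% in Spanish libraries. COL18A1, the collagen from which endostatin is cut, held 1 among 3 dense windows. Of lists of 22 germline genes (such as DAZL and DDX4), 20 imprinted genes (such as H19 and IGF2) and the protocadherin clusters, the authors' deposited table names 1 imprinted gene, which neither held a member nor was listed within 5000 bp of 1. The lists could therefore not be described.

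The authors' deposited table lists 316 autosomal regions as different between the groups. Of the methylated dense windows, 2 overlapped a listed region and 21 lay within 5000 bp of 1. The same was not counted for other dense windows, so whether these counts are low was not tested. The rule also required a high level in every measured library, which limited group differences inside a member beforehand. NLRP13, of the NLR family of innate immunity, has an exonic region at 45% in Creole and 90% in Spanish animals in the authors' deposited table (chromosome 18, 63622104 to 63622197). The window around it (63622001 to 63623000) read 76.9% and 71.2% for Creole 1 and 3, and 92.1% and 87.3% for Spanish 2 and 3. Recomputed over the region itself, the calls of Creole 1 and 3 were 71.1% (218 calls) and 66.8% (546 calls) methylated. Those of Spanish 2 and 3 were 99.3% (147 calls) and 100% (35 calls) methylated. Here and below, recomputed levels pool the calls of 1 library over the region, while listed values are the authors' group means. These are unlike measures, and why they differ was not tested.

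The other overlap was on chromosome 14 (399001 to 400000), in a CpG island core of the authors' deposited table with group means of 27% and 89%. The window read 72.0%, 76.3% and 79.2% in Creole 1 to 3 and 87.2%, 78.5% and 78.9% in Spanish 1 to 3, so the groups overlapped. Within the listed region (399180 to 399261) only Creole 1 of the Creole libraries had calls, 18.8% methylated on 69 calls. The Spanish libraries read 100%, 93.0% and 88.6% there. Close neighbours included MFHAS1 on chromosome 27, listed at 80% and 12% for a region 842 bp from a member in the authors' deposited table. In calls pooled over the region Creole 1 had 43.2% methylation on 192 calls, no other Creole library had calls, and Spanish 1 and 2 had 0% on 252 and 24 calls. The member (24102001 to 24103000) read 83.5%, 88.0% and 89.7% in Creole and 87.6%, 88.2% and 89.97% in Spanish libraries. Near STON2, a stonin of endocytosis, a region 340 bp from a member was listed at 41% and 92% in the authors' deposited table, while the member (chromosome 10, 93700001 to 93701000) read 87.3%, 88.6% and 88.7% in Creole and 88.9%, 84.0% and 76.7% in Spanish libraries. Again Creole 1 was the Creole library with calls in the region, 53.6% methylated on 151 calls.

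A few windows were read far more deeply in some libraries than in others. In 31 of the 1425 windows at least 1 library had 10000 or more calls, and these held 20.7% to 31.4% of all calls of a library in methylated dense windows. On chromosome 17 (35646001 to 35647000), Creole 2 and 3 and Spanish 2 and 3 had 160549, 99168, 107596 and 126091 calls, while Creole 1 had 168 and Spanish 1 had 731. The levels were 79.4%, 80.6%, 81.9% and 82.1% in the deep libraries, 81.5% in Creole 1 (Wilson interval 75 to 86.7%) and 83.2% in Spanish 1. The interval of Creole 1 held all the other levels, and whether depth had a part in them was not tested. The same 4 libraries were deep on chromosome 2 (70593001 to 70594000), with 67375 to 107656 calls against 20 in Creole 1 and 245 in Spanish 1. Spanish 1 alone was deep on chromosome 19 (56044001 to 56045000), with 95512 calls and 96.6% methylation, beside 89.2% in Creole 1 on 1238 calls. The means above weight every window equally, so these windows weigh no more than others.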

How the data were processed

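Per the labels' protocols, blood DNA was cut with MspI, filled in, selected by size, converted with bisulfite and PCR amplified. Per the submitters' processing notes, Trim Galore, Bismark, methylKit and the UMD3.1 build were used, with roles, versions, settings and duplicate handling not given in the sources used here. The deposited coverage files hold, per CpG cytosine and strand, a count of methylated and 1 of unmethylated calls. The percent column that the authors deposited beside them was not used, and levels were recomputed from the counts. The authors' table of regions gives group means as a fraction (per the file headers; printed as percent), and their difference. It also holds a score per region, which the authors made as an area statistic per the file headers and which was not used.

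Groups follow the breed labels; replicate numbers only name animals. Windows for the group test summed cytosines covered in all 6 libraries, with 3 or more such cytosines and 10 or more calls in each. edgeR 4.0.16 (quasi-likelihood F test, with a term per library and a dispersion without trend) was used in R 4.3.3, with limma 3.58.1 (log2 ratio of counts with 2 added) as an alternative, after the test was tried on simulated data. Python 3.11.15, numpy 2.4.6, pandas 2.3.3, statsmodels 0.14.6 (Wilson intervals) and matplotlib 3.10.9 served the rest. Flanks beside both classes were left out. Filled-in positions were taken as the strand facing outwards at a CpG with no covered CpG within 100 bp outwards.

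Members, lists and tests were chosen with earlier results of these data known. Windows named are the 10 densest measured in all 6 libraries, those of smallest p, the longest runs, those nearest the threshold, and those at or within 5000 bp of a listed region, some given only in counts. Windows in listed gene ranges, deeply read windows and recurring spacing were added after values were seen.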

Additional observations from a re-analysis of the deposited data

How the results depend on the processing

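The number of methylated dense windows followed the rule's limits: 2445 at a density of 50, 749 at 70, 649 at a level of 80%, and 3318 with strands merged and 30 CpGs required. Without 1 library each it was 366 (without Creole 1) to 1297. The share in the last 5 Mb was 50.9% at a density of 50, 50.5% at a level of 60% and 57.4% without recurring spacing, and stayed between 51.4% and 53.6% without any 1 library. Windows called between the groups were 58 of all and 1 methylated dense window by the likelihood ratio test, 1 of all by limma, and 0 in every other setting, with each library left out as well. The group difference kept within -1.62 to 0.28 points over 12 alternatives, less than 1.23 points (the SD between libraries) from the reported value, and without 1 library each it was -1.12 to 0.28. The flank difference was 62.2 to 64.9 points without 1 library each, where 5 libraries allow no p under 0.0625. Low cytosines were 7.15% without filled-in positions, 11.6% when counted under 50%, and 9.89% to 10.3% without 1 library each. Of the 7 windows with an unadjusted p under 0.05, those on chromosomes 5 and 21 changed direction when 2 libraries per group sufficed (log2 ratios of -0.28 and 0.34), that on chromosome 15 went from -8.75 to -0.17, and that on chromosome 21 without Spanish 1 (0.12, the highest of -2.66 to 0.12 without 1 library each); the cause was not tested. No paired analysis was possible because the labels pair no animals across groups. A window's value can rest on as few as 10 calls in a library.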

Other observations

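The X chromosome was outside the rule. The same limits applied there found 14 methylated and 22 unmethylated among 145 dense windows (9.66% and 15.2%), against 17.3% and 47.8% on the autosomes. Of the 14, 4 lay in the last 5 Mb. Mean levels over the 6 of them measured in all libraries were 86.1%, 84.1% and 86.6% in Creole 1 to 3 and 89.8%, 84.3% and 88.4% in Spanish 1 to 3, so the groups overlapped. These animals are male and carry a single X chromosome, and the counts are too small for a comparison of the groups.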
